A study of Mus musculus with 4 samples.

Results

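The receptors described here are Kit, the receptor tyrosine kinase for stem cell factor, and cytokine receptor chains that signal through the kinase JAK2. The 8 genes were taken by symbol from a list, namely Kit, Epor, Csf3r, Csf2ra, Csf2rb, Csf2rb2, Il3ra and Il5ra, out of 24340 genes in the table. RNA came from lineage-negative, Kit-positive bone marrow cells of C57BL/6 mice, and every library carried JAK2V617F, an activated form of JAK2. The genotypes were JAK2V617F;Tet2+/+, called wild type (WT) here, and JAK2V617F;Tet2-/-, called knockout (KO), labelled as lacking Tet2, an enzyme that oxidises methylated cytosine. Tet2 was at 4.69 and 5.05 FPKM in the WT control and WT ruxolitinib libraries and at 3.62 and 4.39 in the KO control and KO ruxolitinib libraries, and since these values cover the whole gene they do not check the deletion, whose extent the labels do not give. Each genotype had 1 control library and 1 library of cells treated, after extraction per the series' design text, with ruxolitinib, which inhibits JAK1 and JAK2. No group had normal JAK2, so the receptors were seen only with the mutant kinase present. No dose or time of ruxolitinib, number of animals or driver of the Tet2 deletion was found in the labels. That design text speaks of conditional inactivation in blood cells and also of Dnmt3a and Flt3ITD mice, which none of these 4 labels name.

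Cytokine receptors of this class have no kinase of their own and carry JAK2 on their inner part. Erythropoietin and granulocyte colony-stimulating factor each bind a pair of identical chains, Epor and Csf3r. Interleukin 3, granulocyte-macrophage colony-stimulating factor and interleukin 5 each bind an own alpha chain, encoded by Il3ra, Csf2ra and Il5ra, which then joins a shared beta chain that brings in JAK2. Csf2rb encodes the beta chain common to these 3 cytokines, and mice have a second, closely related gene, Csf2rb2, whose product serves interleukin 3. Kit has its own kinase domain, is required by mast cells and early blood progenitors, and was used for the sort. Mutant JAK2 is known to need a receptor as a scaffold, for which receptors of identical chains serve best.

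Csf2rb and Csf2rb2 lie beside each other on chromosome 15 and are so alike that their sequences bear on every value given for them. Their coding sequences, 2688 and 2634 bases long without the stop codon in GENCODE transcripts (GRCm38), were identical at 95.2% of 2628 aligned bases. The longest identical coding run was 242 bases, in exon 14 of both genes. The following 90 coding bases in exon 4 of each gene, at chr15:78338897-78338986 on the plus strand for Csf2rb and chr15:78294345-78294434 on the minus strand for Csf2rb2, form the stretch within an exon where the genes differ most. They are shown because fragments from here can be assigned, and capitals mark the 16 bases that differ.
Csf2rb: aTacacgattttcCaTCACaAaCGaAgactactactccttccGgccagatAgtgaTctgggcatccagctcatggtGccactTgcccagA
Csf2rb2: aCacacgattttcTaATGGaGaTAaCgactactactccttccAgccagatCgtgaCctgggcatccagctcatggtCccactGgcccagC
Of all stretches of 50 bases in the Csf2rb transcript, 18.9% also occurred in Csf2rb2, and of stretches of 100 bases 7.16% did. The shares for Csf2rb2 in Csf2rb were 19.0% and 7.20%. No source used here gives the read length or the handling of fragments that match both genes, so the division of fragments between them is uncertain. The sum of both genes is therefore given beside the separate values.

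Promoters, taken as the 250 bases before the RefSeq start (GRCm38.p6), were at hand for 7 of the 8 genes and not for Csf2rb. Both strands were searched for 4 short motifs of factors that work in these cells: GATAA (or TTATC) for GATA factors, TTCNNNGAA for STAT factors, CACGTG for MITF and MYC, and GGAAGT (or ACTTCC) for ETS factors. Csf2rb2, Epor and Il5ra held GATAA or TTATC, as did 22.6% of 32851 promoter windows of the same length. Csf2rb2 also held TTCNNNGAA, found in 7.02% of windows, close to its start. The 3 windows are shown because Csf2rb2 and the pair Epor and Il5ra differed in opposite directions with ruxolitinib, with the matches in capitals, at chr15:78305722-78305971, chr9:21963577-21963826 and chr6:106749038-106749287, all on the minus strand.
Csf2rb2: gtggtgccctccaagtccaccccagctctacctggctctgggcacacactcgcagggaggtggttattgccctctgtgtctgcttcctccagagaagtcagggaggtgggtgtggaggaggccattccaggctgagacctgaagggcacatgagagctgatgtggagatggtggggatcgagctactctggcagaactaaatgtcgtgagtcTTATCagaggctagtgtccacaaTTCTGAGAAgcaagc
Epor: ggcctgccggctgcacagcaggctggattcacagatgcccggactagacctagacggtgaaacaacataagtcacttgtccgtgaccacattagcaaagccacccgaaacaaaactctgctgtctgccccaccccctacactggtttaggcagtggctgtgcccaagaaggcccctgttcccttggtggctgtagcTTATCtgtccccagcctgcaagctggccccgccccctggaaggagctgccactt
Il5ra: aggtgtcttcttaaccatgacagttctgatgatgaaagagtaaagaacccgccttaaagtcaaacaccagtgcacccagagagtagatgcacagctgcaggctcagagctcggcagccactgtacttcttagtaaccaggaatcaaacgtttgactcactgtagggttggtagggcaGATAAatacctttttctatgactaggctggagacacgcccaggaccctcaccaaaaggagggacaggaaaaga
Il3ra held GGAAGT, which 19.7% of windows held in either direction, while Kit, Csf2ra and Csf3r held none of the 4 motifs in this window. A match is a run of letters and not a shown binding site.

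The libraries had mast cell transcripts among their most abundant, beside markers shared with basophils and megakaryocytes, while most defining genes of neutrophils, eosinophils and lymphocytes were at or near 0. Steps between the lowest values pointed to between 44300000 and 55000000 fragments per library, scaling by the authors' software included. Of 12 mast cell markers, 11 were measured, that is at a mean of at least 1 FPKM (fragments per kilobase of transcript and 1000000 fragments) over the 4 libraries. Their summed level was 25953 FPKM in the WT control, 29485 in the WT ruxolitinib, 17997 in the KO control and 21670 in the KO ruxolitinib library. Cpa3 was listed at 0 because the authors' software gave no estimate for it. Of 11 neutrophil markers 1 was measured, the protease Ctsg, which mast cells also make, and none of 8 eosinophil and 5 B cell markers was. Among stem and progenitor markers Cd34 lay between 307 and 465 FPKM, and the progenitor kinase Flt3 was listed at 0 in all 4 libraries. The KO libraries also differed from the WT libraries in the sex of the cells. The X-inactivation RNA Xist was at 53.2 and 62.2 FPKM in the KO libraries and at no more than 0.0309 in the WT libraries. Genotype and sex therefore cannot be told apart in any KO difference below.

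The beta chain transcripts were the most abundant of the receptors, followed by Kit, then Il3ra, and then Csf2ra, Il5ra and Epor within a narrow low range. This order of Csf2rb2, Csf2rb, Kit and Il3ra was the same in all 4 libraries. Csf2rb2 (chromosome 15, 78282507 to 78305721, mm10, minus strand) was at 2034 FPKM in the WT control, 1361 in the WT ruxolitinib, 1532 in the KO control and 1022 in the KO ruxolitinib library. It ranked between place 18 and place 37 of all genes in a library. Csf2rb (chromosome 15, 78325989 to 78351001, plus strand) was at 1199, 917, 926 and 725 FPKM in the same order of libraries. For both genes the WT control was the highest library and the KO ruxolitinib library the lowest, by a factor of 1.99 for Csf2rb2 and 1.65 for Csf2rb. As each group is 1 library, neighbouring levels cannot be set against a spread between replicates.

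**Figure D1:**
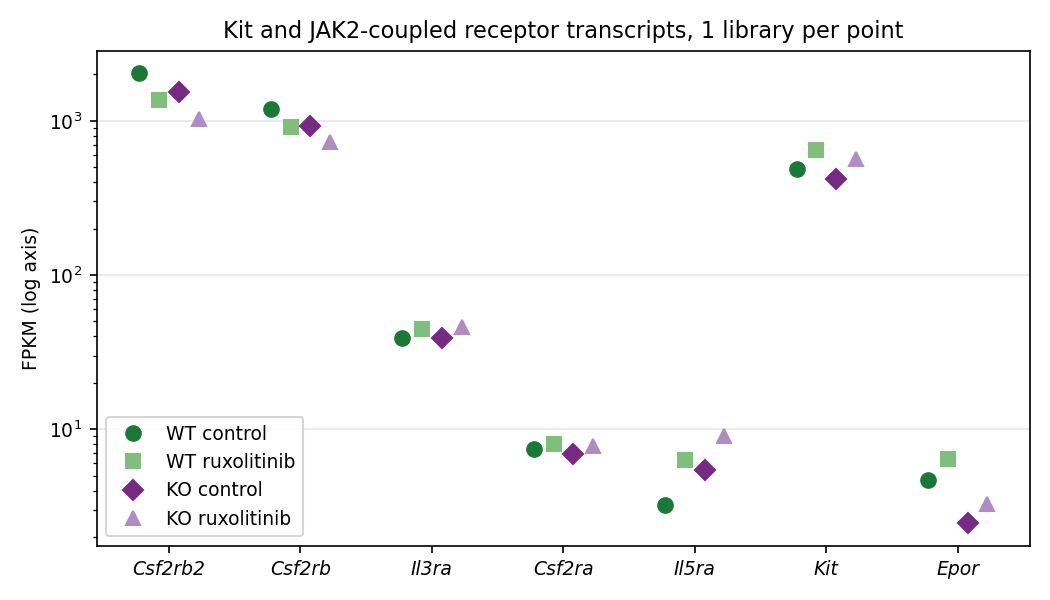
FPKM (log axis) of the 7 measured receptor transcripts, with 1 point for each of the 4 libraries; Csf3r, listed at 0, is not drawn. The beta chains and Kit lie above 400 FPKM in every library, Il3ra near 40, and Csf2ra, Il5ra and Epor between 2.46 and 9.02.

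Among the alpha chains, which give the receptors their ligand, Il3ra was well above Csf2ra and Il5ra. Il3ra (chromosome 14, 14346494 to 14355490, plus strand) was at 38.8 FPKM in the WT control, 44.6 in the WT ruxolitinib, 39.1 in the KO control and 46.3 in the KO ruxolitinib library. An annotated antisense gene overlaps it, and reads of the strands may not have been told apart. Csf2ra (chromosome 19, 61224401 to 61228418, minus strand) was at 7.44, 7.99, 6.88 and 7.76 FPKM, the narrowest range of the 7 measured genes, with a factor of 1.16 between its highest and lowest library. Il5ra (chromosome 6, 106710378 to 106749037, minus strand) was at 3.24, 6.33, 5.45 and 9.02 FPKM, the widest range, with a factor of 2.79. In the WT control it was the lowest of the 7 measured receptors, and in the KO ruxolitinib library it stood above Csf2ra and Epor.

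Of the remaining receptors, Kit (chromosome 5, 75574986 to 75656721, plus strand) was at 487 FPKM in the WT control, 647 in the WT ruxolitinib, 421 in the KO control and 562 in the KO ruxolitinib library. Both ruxolitinib libraries were above both controls. The cells had been sorted on the Kit protein. Epor (chromosome 9, 21958898 to 21963576, minus strand) was at 4.68, 6.37, 2.46 and 3.29 FPKM, with both WT libraries above both KO libraries. Csf3r (chromosome 4, 126024658 to 126044975, plus strand) was listed at 0 in all 4 libraries. Of Epor and Csf3r, whose receptors are pairs of identical chains, Epor was thus the one with a measured level.

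With ruxolitinib, the beta chain transcripts were lower and Kit, Epor and the alpha chains higher in both genotypes. Ratios are given as log2 of FPKM + 1, drug minus control, and a gene was counted at 1.5-fold or more, that is 0.58 on this scale. In WT cells Il5ra alone was counted as higher, at 0.79, and no receptor as lower, where 1.05% of 10471 measured genes were counted as higher and 2.64% as lower. Among protein-coding genes 0.411% were counted as higher. In KO cells Il5ra was again the receptor counted as higher, at 0.64, where 1.67% of measured genes were higher and 2.2% lower. The median over the 7 measured receptors was 0.19 in WT and 0.24 in KO, with 5 positive and 2 negative ratios each. The median over all measured genes was 0.01 and 0.00.

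Csf2rb2 fell just short of the fold rule, at -0.58 in each genotype, and was 0.669 of its control level in WT and 0.667 in KO. Csf2rb was at -0.39 and -0.35, or 0.765 and 0.783 of control. With both genes summed the beta chains were at 3233 FPKM in the WT control and 2278 with drug, and at 2457 and 1747 in the KO. The summed ratio was -0.51 in WT and -0.49 in KO, so the lower level does not rest on how fragments were divided between the genes. Csf2rb2 made up 62.9% of the sum in the WT control and 59.8% with drug, and 62.3% and 58.5% in the KO. Of all measured genes, 2.65% had a lower ratio than Csf2rb2 in WT and 2.20% in KO.

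Kit was 1.33 times its control level in both genotypes, with ratios of 0.41 in WT and 0.42 in KO. A ratio below that of Kit was found for 97.5% of measured genes in WT and 96.0% in KO. Epor was 1.36 times control in WT and 1.34 times in KO, with ratios of 0.38 and 0.31. Il3ra was higher by 0.19 and 0.24 and Csf2ra by 0.09 and 0.15. For the Csf2ra log2 ratio without a pseudocount, the 95% interval from counting error alone was -0.07 to 0.27 in WT. That interval spans both signs, so the direction for Csf2ra in WT is not settled even against counting error. In KO the Csf2ra interval was 0.01 to 0.33. Il5ra was 1.96 times control in WT, with a 95% interval from counting error alone of 0.73 to 1.20 for its log2 ratio without a pseudocount. In KO it was 1.66 times control, with an interval of 0.56 to 0.90. With a pseudocount of 5 the ratio was 0.46 and 0.42, short of the fold rule. The Il5ra intervals rest on an estimated 215 to 708 Il5ra fragments per library. The intervals of both genes leave out all variation between animals and preparations.

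**Figure D2:**
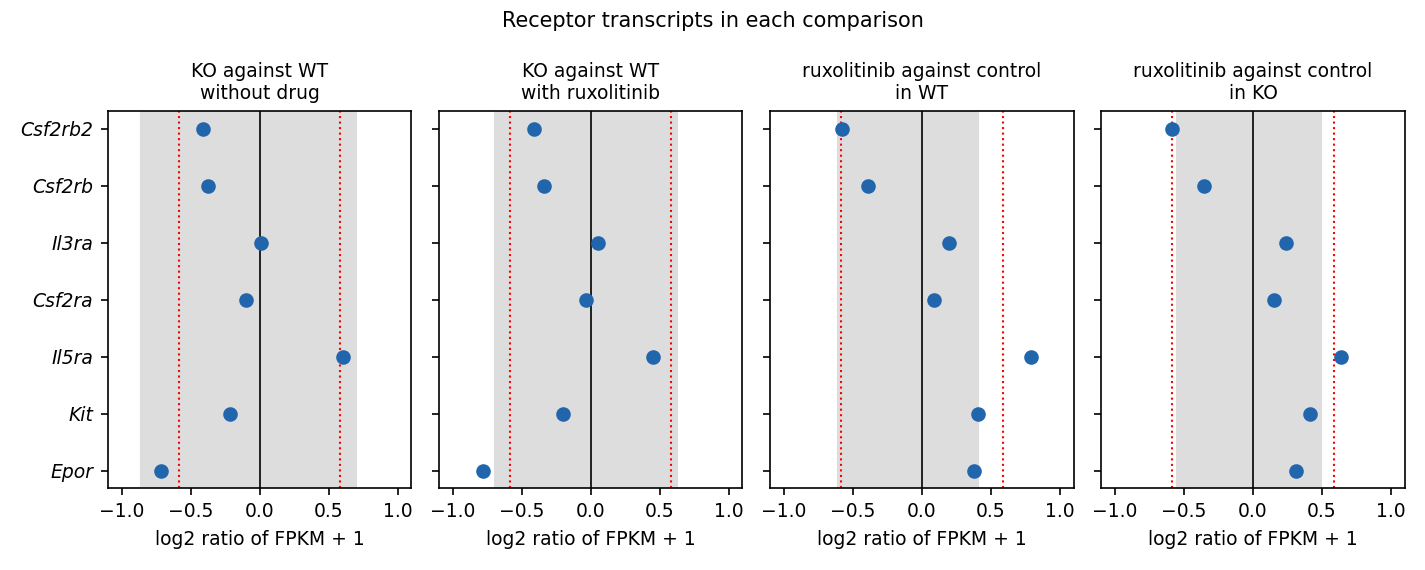
Log2 ratio of FPKM + 1 for the 7 measured receptors in each of the 4 comparisons (1 library against 1). Grey bands hold the middle 95% of all measured genes, and red dotted lines mark 1.5-fold. Csf2rb2 and Csf2rb lie to the left of 0 in all 4 panels. Il5ra lies to the right in all 4 and beyond the grey band in both panels of ruxolitinib against control. Also beyond the band are Kit, narrowly, for ruxolitinib in WT, Csf2rb2 for ruxolitinib in KO, and Epor for KO against WT with ruxolitinib.

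The alpha and beta chains thus stood in different proportions, from 65.3 beta chain FPKM per alpha chain FPKM in the WT control to 38.7 with drug. In the KO the ratio was 47.8 in the control and 27.7 with drug. Il5ra made up 6.54% of the summed alpha chains in the WT control, 10.8% in the WT ruxolitinib, 10.6% in the KO control and 14.3% in the KO ruxolitinib library. Il3ra remained the main alpha chain, at between 73.4% and 78.4%. Beta chain transcripts outnumbered those of the alpha chains in every library, on a scale per transcript length.

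**Figure D3:**
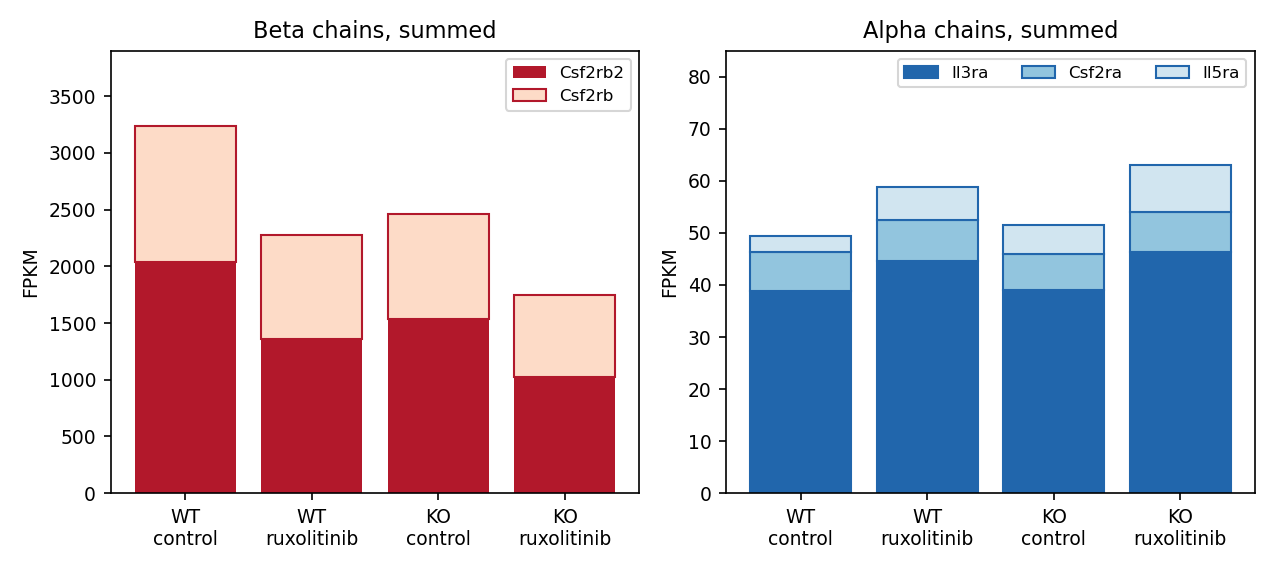
Stacked bars of FPKM in each of the 4 libraries, on the left for the beta chains Csf2rb2 and Csf2rb and on the right for the alpha chains Il3ra, Csf2ra and Il5ra, with different axis ranges. The beta chain sum is lower with ruxolitinib in both genotypes, from 3233 to 2278 and from 2457 to 1747, while the alpha chain sum is higher, from 49.5 to 58.9 and from 51.4 to 63.1.

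The authors' deposited table gave Il5ra a q-value of 0.000746 for ruxolitinib in WT and again in KO. For Kit the authors' deposited table gave 0.0588 in WT and 0.0474 in KO, for Epor 0.0539 and 0.163, and for Csf2rb2 0.311 and 0.0890. It gave Csf2rb 0.191 and 0.169, Il3ra 0.413 and 0.271, and Csf2ra 0.798 and 0.584. These q-values compare 2 libraries and not the conditions. The summed mast cell markers were also higher with drug in both genotypes, with the largest part of the rise from the protease Cma1. Of the 11 measured, 0 were counted as higher in WT and 2 as lower, Tpsab1 at -1.14 and Hdc. In WT Hdc was at 12.2 FPKM in the control and 3.68 with drug. In KO 1 was counted as higher, Mrgprb2 at 1.47. Of all measured genes, 1.05% were counted as higher and 2.64% as lower in WT, and 1.67% as higher in KO. Cd34 was at 307 FPKM in the WT control and 431 with drug, and at 317 and 465 in the KO. In bulk RNA, fewer cells of a type and less RNA per cell cannot be told apart, and the part of cell makeup in the receptor differences was not tested. The eosinophil list, of interest because Il5ra is known from that lineage, summed to 0.448 FPKM in the WT control, 0.447 in the WT ruxolitinib, 1.94 in the KO control and 2.24 in the KO ruxolitinib library. Its peroxidase Epx was at no more than 0.0367.

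Without drug, the KO library had lower Epor and higher Il5ra than the WT library, and lower levels of both beta chains. Epor had a ratio of -0.72, KO minus WT, and Il5ra of 0.61, so that 1 receptor was counted as lower and 1 as higher. Of measured genes, 5.06% were counted as lower and 3.88% as higher. Epor was 0.525 of its WT level and Il5ra 1.68 times. Csf2rb2 was at -0.41, Csf2rb at -0.37 and their sum at -0.40, short of the fold rule. Kit was at -0.21, Csf2ra at -0.10 and Il3ra at 0.01. The median over the 7 receptors was -0.21, with 5 negative ratios, against 0.00 over all measured genes.

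With ruxolitinib, Epor was again lower in the KO library, at -0.78 or 0.517 of the WT level, and was the receptor counted, where 3.34% of measured genes were lower and 2.97% higher. Il5ra was at 0.45, or 1.43 times the WT level, Csf2rb2 at -0.41, Csf2rb at -0.34 and Kit at -0.20. The median was -0.20. The 2 genotype comparisons rest on separate pairs of libraries, while each library also enters a drug comparison, and the labels leave unsaid which libraries shared animals. For Epor the 95% interval from counting error alone was -1.18 to -0.68 without drug and -1.17 to -0.74 with drug, for the log2 ratio without a pseudocount. With a pseudocount of 5 the Epor ratio was -0.38 and -0.46 and that of Il5ra 0.34 and 0.31, all short of the fold rule. The authors' deposited table gave Epor a q-value of 0.000746 in both genotype comparisons, and Il5ra 0.000746 without drug and 0.00550 with drug. It gave Csf2rb2 0.538 without and 0.217 with drug, Csf2rb 0.216 and 0.187, and Kit 0.429 and 0.498. Csf2ra had 0.779 and 0.935 and Il3ra 0.982 and 0.890. These q-values, too, compare 2 libraries and not the genotypes.

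Rescaling every library to the same sum (TPM) raised the median ratio of all measured genes to 0.14 without drug and 0.13 with drug in the genotype comparisons. On that scale Kit was at -0.06 and -0.07, Csf2rb2 at -0.26 and -0.28, Epor at -0.68 and -0.74 and Il5ra at 0.81 and 0.61, the last past the fold rule also with drug. Csf2ra turned positive, at 0.04 and 0.09. Relative to the raised median, Csf2rb2, Csf2rb, Kit, Csf2ra and Epor lay below it and Il5ra and Il3ra above it in both.

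Marker sums moved with genotype as well. The order of libraries for Epor, from the WT ruxolitinib over the WT control and the KO ruxolitinib to the KO control library, was also that of the summed mast cell markers, which follow Cma1 and Fcer1a. Without drug 3 mast cell markers were counted as lower in the KO, Hdc, Cma1 and Fcer1a, where 5.06% of measured genes were. Counted as higher were 3, Mrgprb2 at 2.64, Mrgprb1 at 2.61 and Tpsab1 at 1.13, where 3.88% of measured genes were. The summed megakaryocyte markers had that order too, at 940, 818, 685 and 550 FPKM, with 3 of 7 measured. The erythroid list had 2 of 10 measured genes, and its sum of 37.3, 22.7, 58.9 and 36.7 FPKM in the WT control, WT ruxolitinib, KO control and KO ruxolitinib library was mostly the transferrin receptor Tfrc, which dividing cells of many types use. The erythroid factor Klf1 was at no more than 0.636 FPKM and the band 3 gene Slc4a1 was listed at 0. Their part in the Epor difference was not tested. Of 4 measured markers of basophils, which also carry interleukin 3 receptors, 2 were counted as higher in the KO without and with drug. They were Prss34 and Mcpt8, where 3.88% and 2.97% of measured genes were counted as higher. Mcpt8 was at 94.4 FPKM in the WT control and 277 in the KO control. Cd200r3 was at -0.21 and 0.08. Ms4a3 was at -0.07 without drug and counted as lower with drug, at -0.70, where 3.34% of measured genes were. The eosinophil sum was higher in the KO as well, with the granule gene Prg2 listed at 0 in both WT libraries and at 0.860 and 1.15 FPKM in the KO libraries, and its part in the Il5ra difference was not tested.

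The ruxolitinib response of the receptors was nearly the same size in both genotypes. The KO response minus the WT response lay between -0.16 for Il5ra and 0.06 for Csf2ra, and was 0.00 for Csf2rb2, 0.01 for Kit, 0.03 for Csf2rb, 0.04 for Il3ra and -0.06 for Epor. No receptor was counted at 1.5-fold, where 1.82% of measured genes were counted as higher and 1.14% as lower. A difference no larger than that of Il5ra was found for 74.0% of measured genes, so small differences were common. With 1 library per group an interaction could not be tested, and equal responses are not shown.

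No ligand of the 8 receptors was measured, as far as these cells' own RNA shows. The list of 8 ligand genes also held Thpo and Tslp, which bind other receptors, and Tslp was the 1 measured. Tslp, a cytokine of barrier tissues, was at 2.49 FPKM in the WT control and 2.77 in the WT ruxolitinib library. It was at 1.03 in the KO control and 0.937 in the KO ruxolitinib library. Its ratio was -0.78 without drug and -0.96 with drug, KO minus WT. Csf2, the ligand of Csf2ra, was at no more than 0.372 FPKM. Kitl, the ligand of Kit, was at no more than 0.00864, and Il3 and Epo were listed at 0.

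Of 27 other cytokine receptor chains, 14 were measured. Without drug 3 were counted as lower in the KO and 0 as higher, where 5.06% and 3.88% of all measured genes were, with a median of -0.10. They were Crlf2, the receptor of Tslp, which pairs with Il7r and signals through JAK1 and JAK2, Il4ra, the interleukin 4 receptor, and Il10ra, the interleukin 10 receptor. Crlf2 was at 142 FPKM in the WT control, 148 in the WT ruxolitinib, 78.5 in the KO control and 88.2 in the KO ruxolitinib library. It was the 1 chain counted as lower with drug too, where 3.34% of measured genes were, with ratios of -0.85 and -0.74. Its partner Il7r was at no more than 0.0298. Il4ra was at 344, 236, 221 and 187 FPKM, and like the beta chains it had its highest level in the WT control and its lowest in the KO ruxolitinib library. With ruxolitinib 0 of the 14 chains were counted in either direction in WT or in KO, with medians of 0.02 and 0.10. Of all measured genes, 1.05% were counted as higher and 2.64% as lower in WT, and 1.67% and 2.2% in KO. A count of 0 among 14 is thus near these shares.

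**Figure D4:**
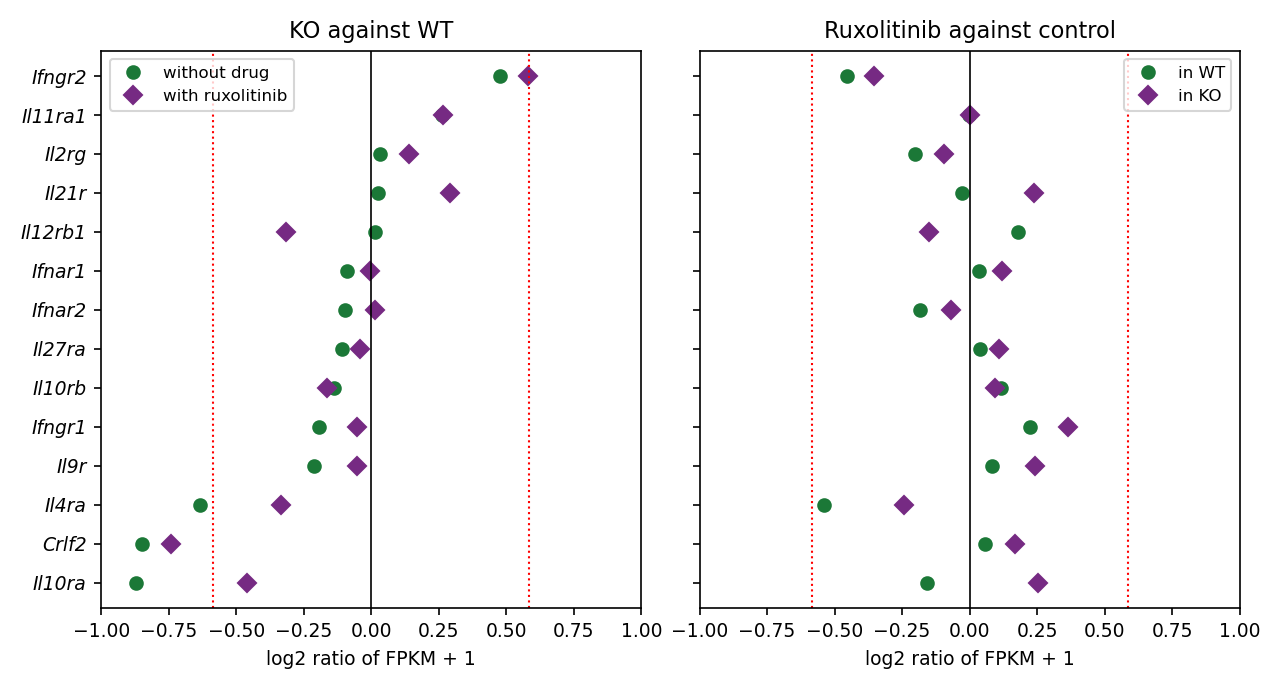
Log2 ratio of FPKM + 1 for the 14 other measured cytokine receptor chains, on the left KO against WT and on the right ruxolitinib against control, each from 1 library against 1. Red dotted lines mark 1.5-fold. Il10ra, Crlf2 and Il4ra lie beyond the left line without drug, and no point on the right passes either line.

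Kit belongs to the class III receptor kinases, and of the other 4 in this class 1 was measured. Pdgfrb, a receptor for platelet-derived growth factor, was at 0.146 FPKM in the WT control, 0.151 in the WT ruxolitinib, 1.86 in the KO control and 2.21 in the KO ruxolitinib library. Its ratio was 1.32 without drug and 1.48 with drug. Csf1r, the receptor of the macrophage growth factor, was at no more than 0.197 FPKM.

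Of the genes that act directly below Kit and the cytokine receptors, all 27 were measured, and 0 were counted in either direction between genotypes. Of all measured genes, 3.88% were counted as higher and 5.06% as lower without drug, and 2.97% and 3.34% with drug. With ruxolitinib 2 of the 27 were counted as lower in each genotype and 0 as higher. Of all measured genes, 2.64% were lower and 1.05% higher in WT, and 2.2% and 1.67% in KO. The kinase subunit Pik3cd was at 186 FPKM in the WT control, 112 in the WT ruxolitinib, 141 in the KO control and 93.9 in the KO ruxolitinib library, with ratios of -0.73 and -0.58. The adaptor Dok2 was at 10.6, 6.95, 11.0 and 6.66 FPKM, with ratios of -0.55 and -0.65. Rasgrp1, an activator of RAS, was at 2.33, 0.962, 1.98 and 0.983 FPKM and was counted in both genotypes, with ratios of -0.76 and -0.59. The list had a median of 0.04 in WT and 0.07 in KO.

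The 17 measured regulators of these receptor genes had a median ratio of 0.03 with ruxolitinib in WT and 0.05 in KO. Between genotypes, KO minus WT, the median was -0.12 without drug and -0.16 with drug. The ratios of Gata2, which drives Kit and mast cell genes, were -0.12 and -0.07 with ruxolitinib in WT and KO. Those of the mast cell factor Mitf were 0.05 and 0.17. Between genotypes Gata2 was at -0.23 without and -0.17 with drug, and Mitf at -0.09 and 0.03. With drug 0 regulators were counted in WT, where 1.05% of measured genes were counted as higher and 2.64% as lower. In KO 1 regulator was counted as lower, where 2.2% of measured genes were. It was Cebpb, at 12.2 FPKM in the KO control and 7.35 with drug. Between genotypes Lyl1 was counted as lower without drug, at -0.68, where 5.06% of measured genes were. Lyl1 and Lmo2 were counted as lower with drug, at -0.73 and -0.70, where 3.34% of measured genes were. Lmo2 is a bridging protein of the GATA complex on blood genes. Its ratios with ruxolitinib were 0.46 in WT and 0.33 in KO. Those of Epor were 0.38 and 0.31 and those of Kit 0.41 and 0.42. A link between Lmo2 and these receptors was not tested.

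Genes most like each receptor were found by the distance between log2 profiles centred over the 4 libraries, among 7752 or 7753 named genes at a mean of at least 5 FPKM. Likeness over 4 libraries is a weak description. Nearest to Csf2rb2 were Socs2, a feedback inhibitor of cytokine signalling, at a distance of 0.018, Tnfsf14 at 0.036 and the survival gene Bcl2 at 0.082. Socs2 was at 29.4 FPKM in the WT control, 19.0 in the WT ruxolitinib, 21.8 in the KO control and 14.1 in the KO ruxolitinib library, so each step was close to that of Csf2rb2. Within a distance of 0.2 lay 17 genes for Csf2rb2, 61 for Csf2rb, 188 for Kit, 32 for Epor and 0 for Il5ra.

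Nearest to Csf2rb were Ifi35, the mast cell adaptor Clnk and Mgat4b, at 0.046, 0.069 and 0.072. Nearest to Kit were Cyth3, Wdyhv1 and Rgs12, at 0.027, 0.046 and 0.065, and Cyth3 was at 53.2, 71.1, 46.9 and 61.3 FPKM. Nearest to Epor were Zfp667, the platelet glycoprotein Gp5 and Smim24, at 0.041, 0.067 and 0.11, with Gp5 at 61.8, 83.2, 36.0 and 46.3 FPKM. For Il5ra the nearest, Lbh, Rab11fip4 and the opposite-strand gene Chd3os, lay at a distance of 0.27. Il3ra and Csf2ra varied by less than 1.5-fold over the libraries, and 1388 and 2729 genes lay within 0.2 of them.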

How the data were processed

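Ribosomal RNA was removed from total RNA before standard Illumina library preparation, per the labels' protocols. The tools were STAR and Cuffdiff and the build mm10, per the submitters' processing notes, which name no versions. The authors deposited FPKM values for 24340 genes in 4 libraries and a second table of library pairs, with a log2 fold change without a pseudocount, a p-value (not used here) and a q-value for each gene. The log2 and q values printed from it are the authors' own, and 2 of its columns, which repeat values of single libraries, were left aside. There, 2 genes had too many fragments and 16 a failed fit, per the file's status column.

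Libraries were assigned to groups by title. Each comparison is 1 library against 1 and has no test of its own; an additive model of drug and genotype over the 4 libraries, with 1 residual degree of freedom, was not run. Ratios were formed as log2(FPKM + 1), a scale that shrinks ratios of low genes, for 10471 genes averaging 1 FPKM or more; 7 of 8 receptors passed and Csf3r did not. Receptors, lists, motifs and rules were chosen with earlier results of these data known. Named genes were all receptors, the 3 nearest profiles for each receptor that varied 1.5-fold, and list members at 1.5-fold. Markers were described by sums, by genes at 0 and by leading genes.

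Depth was estimated from the steps of low values of genes with 1 transcript over 1500 bases, less 200 bases; between 77.7% and 83.1% of low values lay within 0.15 of a whole multiple. Counting intervals used the shortest coding transcript over 1500 bases. The steps were tested on simulated data. Alternatives were pseudocounts of 0.1 and 5, other filters, median centring, TPM, a 2-fold rule, the beta chains summed, and the authors' fold changes. Coding sequences came from GENCODE M21 and promoters from RefSeq (GRCm38.p6). Protein sequences were not used here. Python 3.11.15, numpy 2.4.6, pandas 2.3.3, Biopython 1.88 and matplotlib 3.10.9 were used.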

Additional observations from a re-analysis of the deposited data

Results flagged for a closer look

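Il10ra, the interleukin 10 receptor chain, differed in opposite directions with ruxolitinib, at a log2 ratio of -0.16 in WT and 0.25 in KO, and the difference between the genotypes was not tested. It was at 87.1 FPKM in the WT control, 78.0 in the WT ruxolitinib, 47.2 in the KO control and 56.4 in the KO ruxolitinib library. The 18 genes looked at were the measured receptors and the list genes at 1.5-fold in a comparison. Of these, Il10ra was the 1 whose ratios had opposite signs and were at least 0.1 in size. Il12rb1, a chain short of 1.5-fold and so not among the 18, also had opposite signs with ruxolitinib, at 0.18 in WT and -0.15 in KO.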

How the results depend on the processing

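No paired analysis was possible because the labels give no replicate numbers and each comparison holds 1 library a group; a drug effect averaged over both genotypes was not tested. Of 300 values of single receptors under the alternatives, 287 stayed on the same side of the fold rule, 10 fell short of it and 3 newly passed it. The other filters and the beta chain sum leave a single receptor's ratio as it was, so those values stayed by construction. The 2-fold rule changes the threshold alone and lets no value newly pass. The 287 are therefore not a measure of robustness. Signs changed in 3 of the 300, all under TPM: Csf2ra at 0.04 and 0.09 between genotypes without and with drug, and the genotype difference of the Kit response at -0.01. With a pseudocount of 5, and with a 2-fold rule, 0 receptors were counted in each of the 4 comparisons, where 2, 1, 1 and 1 were counted otherwise. The Il5ra ratio for ruxolitinib with a pseudocount of 5 was 0.46 in WT and 0.42 in KO, since that pseudocount is near its level. With a mean of at least 5 FPKM required, Epor was left out, and 1 receptor was counted between genotypes without drug and 0 with drug. With TPM 2 were counted between genotypes with drug. With ratios centred on their median 2 were counted for ruxolitinib in WT and 2 in KO, since Csf2rb2 then passed at -0.59 in both. The shares of all measured genes counted under these other settings were not worked out, so these counts have no background beside them. Among protein-coding genes 0.411% were counted as higher with ruxolitinib in WT, 1.096% in KO, and for the difference of responses 0.969% higher and 0.147% lower, an alternative chosen after seeing the data. The number of fragments limits Epor, Il5ra and Csf2ra most.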

Other observations

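The chains of the interferon gamma receptor, which carries JAK1 and JAK2, were chosen after their values were seen because they differed in opposite directions. Ifngr1, the ligand-binding chain, was at 14.5 FPKM in the WT control, 17.1 in the WT ruxolitinib, 12.5 in the KO control and 16.4 in the KO ruxolitinib library. Ifngr2, the chain that brings in JAK2, was at 4.31, 2.88, 6.40 and 4.79 FPKM. With ruxolitinib Ifngr1 was higher by 0.23 in WT and 0.36 in KO on the log2(FPKM + 1) scale, and the Ifngr2 ratio was -0.46 and -0.35. Ifngr2 was higher in the KO, by 0.48 without drug and 0.58 with drug, where Ifngr1 was at -0.19 and -0.05. None of these reached 1.5-fold.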
